A study of Mus musculus with 9 samples.

Results

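The genes of the TGF-beta and BMP pathway were followed across all 3 groups of this mRNA sequencing experiment on MS1 cells, an immortalised endothelial cell line from mouse pancreas. They comprised 42 genes, chosen by name from the 17565 genes of the deposited gene table. The rule used no measured value, but earlier results of these data were known when the names were chosen. They were 2 TGF-beta, 3 BMP and 2 activin ligand genes, 8 type I and type II receptors, 2 co-receptors, 5 latency or processing factors, 3 follistatin family genes, 8 SMADs, 5 nuclear or ubiquitin regulators and 4 target genes. All 42 were in the table and 37 passed the filter on low values, at least 0.5 CPM in at least 3 libraries, so that they could be tested. Each group held 3 samples. Control cells carried the empty lentiviral vector pCDH-puro, another group stably expressed TAZ4A from pCDH-TAZS4A, and the last stably expressed TAZ-CAMTA1 from pCDH-TAZ-CAMTA1. TAZ co-activates transcription under restraint by the Hippo kinases and acts through the TEAD DNA-binding proteins. In the TAZ4A mutant, alanine replaces serines that those kinases phosphorylate. TAZ-CAMTA1 joins TAZ to CAMTA1 and is the oncoprotein found in epithelioid hemangioendothelioma, a vascular cancer. The series compares the mutant with the fusion. All groups share the one cell line and the lentiviral vector family, and the labels do not say whether a group is a clone or whether its samples came from separate cultures, so that p-values measure spread between samples that may be technical.

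TGF-beta family ligands are secreted dimers that bring together type II and type I serine/threonine kinase receptors. The type I receptor then phosphorylates receptor SMADs, Smad2 and Smad3 for TGF-beta and activins, and Smad1, Smad5 and Smad9 for BMPs, and these enter the nucleus with Smad4. TGF-beta is stored in the matrix in a latent complex held by LTBP proteins, follistatins trap activins and some BMPs outside the cell, and Smad6 and Smad7 feed back on the receptors. In endothelium, signalling through the type I receptor Acvrl1 and the co-receptor endoglin controls vessel quiescence, and the Id genes are the standard direct BMP targets.

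The libraries held 21966004 to 34224715 reads in genes, and 3 reads, the level that a count of 0 still allows, correspond to 0.0878 to 0.139 CPM, for counting error only. TAZ-CAMTA1 replicate 2 stood apart. Its log2 levels correlated at 0.963 and 0.962 with those of the other TAZ-CAMTA1 samples, against at least 0.997 for every other pair of samples within a group. All tests share 1 estimate of spread over the 9 libraries, which this library enlarges, so the counts of called genes are given with and without it. Wwtr1, which encodes TAZ, did not follow the TAZ4A label. It stood at 545, 536 and 570.3 CPM in control, 319, 320.4 and 335 CPM in the TAZ4A-labelled libraries and 492, 328 and 491 CPM in TAZ-CAMTA1, and it fell in the TAZ4A-labelled libraries (log2 fold change -0.76 ± 0.15, BH-adjusted p = 0.0057 by limma, where BH stands for Benjamini-Hochberg). Which species the TAZ of the constructs comes from is not in the labels, and whether construct reads are counted in the mouse gene was not tested. The group is therefore called by its label throughout, and each direction given for it rests on that label. Camta1 rose in TAZ-CAMTA1 (log2 fold change 1.60 ± 0.14, BH-adjusted p = 7.6e-05). The 10 endothelial markers were all measured in every group, with a summed level of 10801 to 11011 CPM in control, 7091 to 7313 CPM in the TAZ4A-labelled libraries and 10425 to 11985 CPM in TAZ-CAMTA1. The summed level of 6 mural markers was 2.33 to 2.74, 11.6 to 13.0 and 4.87 to 6.28 CPM in the same order, with Rgs5, Myh11, Des and Cspg4 below the filter. That of 5 fibroblast markers was 3.95 to 4.78, 15.0 to 16.5 and 8.50 to 13.6 CPM, with Lum below it. Of 6 leukocyte markers only Cd68 was tested, with Ptprc, Csf1r and Itgam among those below the filter, and the pancreatic epithelial list came down to Krt19 (0.501 ± 0.0596, 9.05 ± 1.03 and 1.31 ± 0.726 CPM). The part of these marker levels in the results was not tested, and fewer cells of a type cannot be told apart from less RNA per cell in bulk samples.

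Of the 37 tested members, 8 rose and 10 fell in the TAZ4A-labelled libraries against control (limma-trend, Benjamini-Hochberg adjusted p under 0.05 over 12350 genes). Among all genes tested 24.9% were called, 13.2% higher and 11.7% lower. In TAZ-CAMTA1 against control 9 members rose and 10 fell, where 32.1% of all genes were called, 16.8% higher and 15.3% lower. In the direct comparison 13 members were higher and 6 lower in TAZ-CAMTA1 than in the TAZ4A-labelled libraries, where 37.9% of all genes were called, 19.4% higher and 18.5% lower. Without TAZ-CAMTA1 replicate 2 the members' counts were 12 higher and 20 lower, 17 higher and 12 lower, and 19 higher and 10 lower in the same order. The background then was 58.3% (28.1% higher and 30.3% lower), 60.9% (28.5% and 32.3%) and 63.0% (30.8% and 32.2%). Without control replicate 3 the count over all genes in TAZ-CAMTA1 against control fell from 3966 to 2626. With deposited TPM in place of CPM 8 members rose and 6 fell in the TAZ4A-labelled libraries. The median log2 fold change of the tested members was -0.16, -0.03 and -0.03 in the 3 comparisons, beside -0.01, -0.03 and -0.02 over all genes tested. Inhba, Ltbp2 and Fstl3 reached the filter only through the construct groups, so the counts against control hold rises that the filter favoured. The members moved in both directions, and they are described by role. The authors' deposited table calls 17, 19 and 22 members at a false discovery rate under 0.05.

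**Figure D1:**
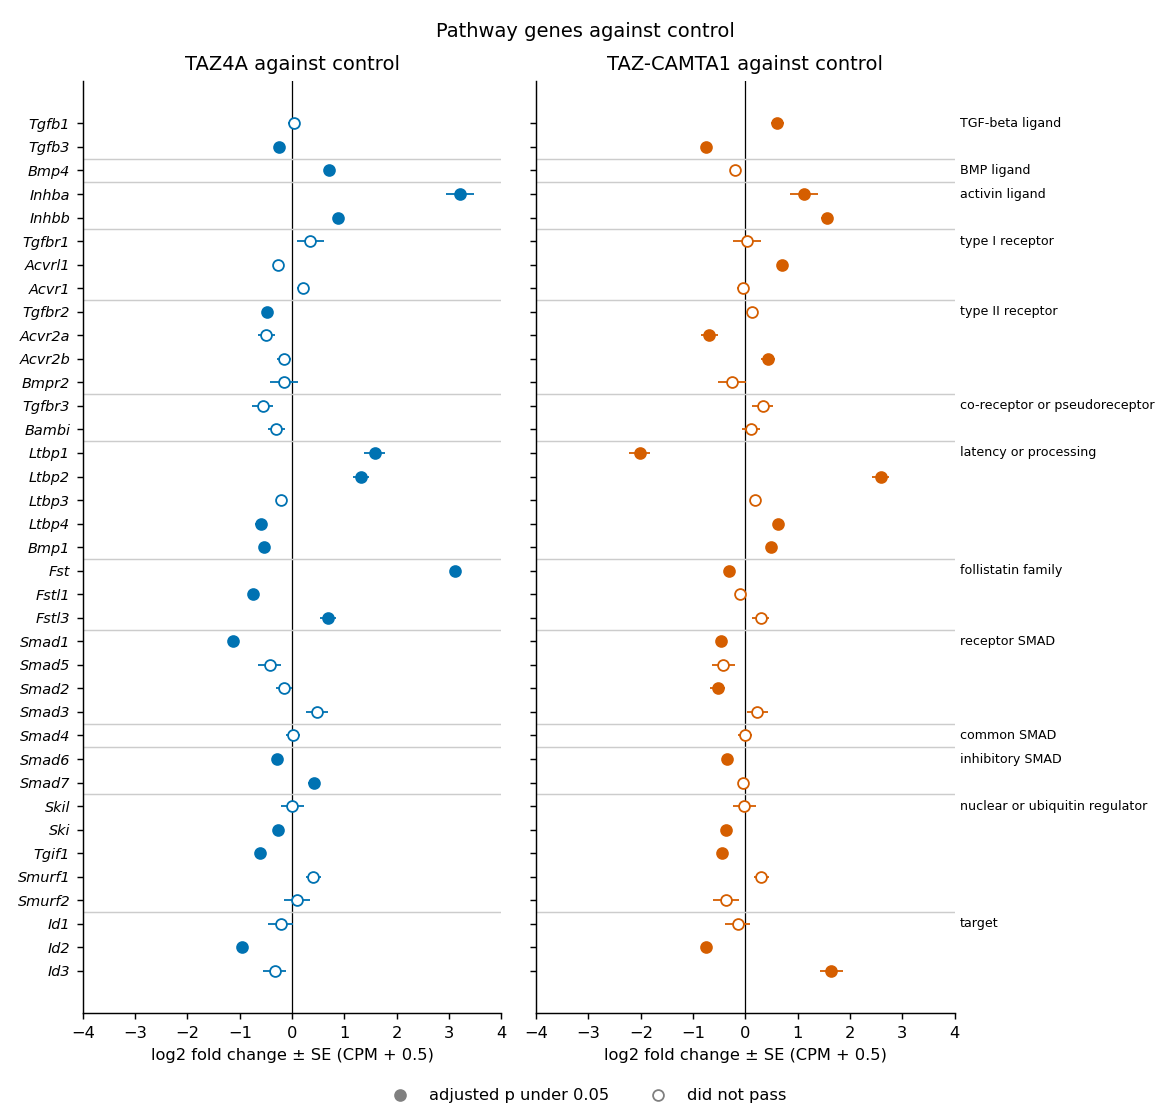
Log2 fold change with its standard error (horizontal axis, on the log2(CPM + 0.5) scale) of each of the 37 tested members (rows, grouped by role) in the TAZ4A-labelled libraries (left) and in TAZ-CAMTA1 (right) against control, n = 3 samples a group; filled points have an adjusted p under 0.05. Fst and Inhba lie farthest right in the left panel, at 3.12 and 3.21, and Ltbp1 lies on opposite sides of 0 in the panels, at 1.58 and -2.02.

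On the length-scaled TPM scale, which allows levels of different genes to be set side by side, Fstl1 was highest in control at 534 ± 2.81 TPM (SD, n = 3), followed by Smad1 at 403 ± 15.5 TPM. Bmp4 at 269.5 ± 5.34 TPM and Tgfbr2 at 259 ± 17.9 TPM came next and differed by less than the sum of their SDs. In the TAZ4A-labelled libraries the order opened with Fst at 873 ± 26.9 TPM, then Bmp4 at 458 ± 5.08 TPM and Fstl1 at 331 ± 9.31 TPM. In TAZ-CAMTA1 Fstl1 led again at 482 ± 107 TPM, and Smad1 at 283 ± 61.3 TPM and Tgfbr2 at 277 ± 64.1 TPM followed without separating beyond their SDs. The 5 members below the filter were Bmp2, Bmp6, Bmpr1a, Smad9 and Tgfbi. Bmp2, a BMP ligand, had 0, 0 and 0 reads in control, 0, 1 and 2 in the TAZ4A-labelled libraries and 3, 7 and 1 in TAZ-CAMTA1. Bmp6, a BMP ligand of liver and endothelium, had 1, 2 and 2 reads in the TAZ4A-labelled libraries and 0 in the other 6 libraries. Bmpr1a, a type I BMP receptor, had 1, 0 and 0, 0, 0 and 0 and 6, 6 and 6 reads in the 3 groups, and Smad9, a BMP receptor SMAD, had 1, 0 and 0, 6, 4 and 3 and 4, 2 and 0. These 4 genes had at most a few reads a library and were too low to be tested.

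**Figure D2:**
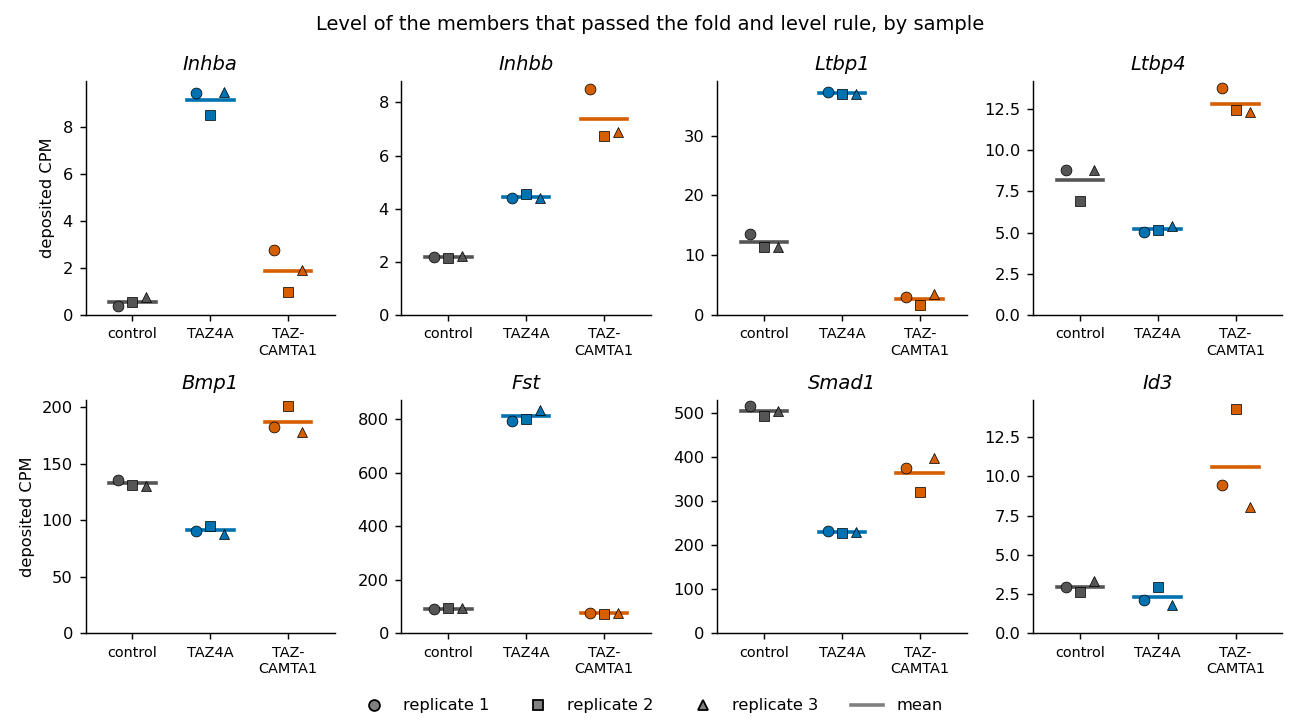
Deposited CPM (vertical axis, from 0) of the 8 members called in at least 1 comparison with a log2 fold change of at least 1 in either direction there and at least 5 CPM in the higher group. Each point is 1 sample, the shape gives the replicate number and the line the group mean. The Fst and Inhba samples of the TAZ4A-labelled libraries stand above all others, Ltbp1 differs between all 3 groups, and Id3 is high in the TAZ-CAMTA1 samples.

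Among the ligands the activin genes rose in both construct groups. Inhba, which encodes the activin A subunit, was read at 0.371, 0.538 and 0.752 CPM in control, 9.47, 8.54 and 9.51 CPM in the TAZ4A-labelled libraries and 2.75, 0.974 and 1.92 CPM in TAZ-CAMTA1. The 3 groups did not overlap, and TAZ-CAMTA1 replicate 2 was the sample nearest to control. Control replicate 1 was below the filter level of 0.5 CPM, so Inhba was tested only because the construct groups were higher. Inhba rose in the TAZ4A-labelled libraries (log2 fold change 3.21 ± 0.27, BH-adjusted p = 4.6e-05) and less in TAZ-CAMTA1 (1.12 ± 0.27, BH-adjusted p = 0.013), and the direct comparison put TAZ-CAMTA1 lower (-2.10 ± 0.27, BH-adjusted p = 4.6e-04). The TAZ-CAMTA1 rise missed the threshold without control replicate 1 (log2 fold change 0.99, adjusted p = 0.054), with quantile normalization (0.80, adjusted p = 0.053) and with the 6 compared samples alone (adjusted p = 0.051), and without TAZ-CAMTA1 replicate 2 it was 1.43, BH-adjusted p = 1.2e-06. Junction reads, at 0, 1 and 0 in control, 20, 8 and 18 in the TAZ4A-labelled libraries and 7, 3 and 2 in TAZ-CAMTA1, were few but ordered in the same way by group total. Inhbb, the activin B subunit gene, had 2.18, 2.12 and 2.22 CPM in control, 4.40, 4.53 and 4.39 CPM in the TAZ4A-labelled libraries and 8.49, 6.75 and 6.89 CPM in TAZ-CAMTA1. Here TAZ-CAMTA1 was the highest group, with no overlap between any groups, and Inhbb rose by a log2 fold change of 0.88 ± 0.10, BH-adjusted p = 2.9e-04 in the TAZ4A-labelled libraries and of 1.55 ± 0.10, BH-adjusted p = 1.8e-05 in TAZ-CAMTA1. The difference between the constructs passed as well (0.67 ± 0.10, BH-adjusted p = 0.0012). The activin genes thus differed in which construct group stood highest.

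The Inhba promoter is shown because Inhba had the largest fold change of all members against control. The line gives the 250 bases before the RefSeq start on GRCm38.p6, with the only match to the TATA-box letters TATAAA, 91 bases before the start, in capitals.
Inhba, chr13:16011601-16011850, plus strand: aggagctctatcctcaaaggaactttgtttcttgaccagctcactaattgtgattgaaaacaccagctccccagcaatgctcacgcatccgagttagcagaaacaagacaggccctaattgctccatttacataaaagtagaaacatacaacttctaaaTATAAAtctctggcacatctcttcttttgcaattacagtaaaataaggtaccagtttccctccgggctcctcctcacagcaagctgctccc

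Of the TGF-beta ligands proper, Tgfb1, the main TGF-beta of endothelium and blood cells, had 37.7, 32.6 and 35.5 CPM in control, 36.6, 36.7 and 35.2 CPM in the TAZ4A-labelled libraries and 47.2, 64.8 and 51.6 CPM in TAZ-CAMTA1. The TAZ-CAMTA1 samples were all above the rest, and Tgfb1 rose there against control (log2 fold change 0.61 ± 0.12, BH-adjusted p = 0.0051) and was higher than in the TAZ4A-labelled libraries (0.57 ± 0.12, BH-adjusted p = 0.0058), while the TAZ4A-labelled libraries overlapped control (0.04 ± 0.12, BH-adjusted p = 0.86). Tgfb3, the related ligand of palate and vessel development, went the other way, with 16.1, 16.7 and 15.9 CPM in control, 13.1, 13.5 and 13.8 CPM in the TAZ4A-labelled libraries and 9.63, 8.80 and 9.90 CPM in TAZ-CAMTA1. It fell in TAZ-CAMTA1 (-0.75 ± 0.08, BH-adjusted p = 1.8e-04) and was lower there than in the TAZ4A-labelled libraries (-0.49 ± 0.08, BH-adjusted p = 0.0013). Its fall in the TAZ4A-labelled libraries (-0.26 ± 0.08, BH-adjusted p = 0.038) missed the threshold without any 1 of the control or TAZ4A libraries (adjusted p 0.092 to 0.14), without TAZ-CAMTA1 replicate 1 (0.050), with TPM (0.30) and with rescaled CPM (0.097). Bmp4, the BMP ligand of this list with a measurable level, had 225, 225 and 213 CPM in control, 365, 367 and 356 CPM in the TAZ4A-labelled libraries and 180.4, 217 and 179 CPM in TAZ-CAMTA1. The TAZ4A-labelled libraries stood apart from the others and Bmp4 rose there (0.71 ± 0.09, BH-adjusted p = 3.9e-04), whereas TAZ-CAMTA1 overlapped control through replicate 2 (-0.21 ± 0.09, BH-adjusted p = 0.1) and was lower than the TAZ4A-labelled libraries (-0.92 ± 0.09, BH-adjusted p = 7.8e-05). Without that replicate Bmp4 was lower than control in TAZ-CAMTA1 (log2 fold change -0.30, BH-adjusted p = 3.7e-05).

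Fst, which encodes follistatin, the secreted protein that binds and neutralises activins, was the member with the highest TPM in the TAZ4A-labelled libraries. Its values were 90.5, 93.2 and 94.0 CPM in control, 793, 801 and 834 CPM in the TAZ4A-labelled libraries and 76.2, 70.7 and 76.7 CPM in TAZ-CAMTA1. The TAZ4A-labelled libraries stood about an order of magnitude above all others, and the TAZ-CAMTA1 samples lay just below the control samples without overlap. Fst rose in the TAZ4A-labelled libraries (log2 fold change 3.12 ± 0.07, BH-adjusted p = 3.2e-08), fell slightly in TAZ-CAMTA1 (-0.31 ± 0.07, BH-adjusted p = 0.0077), and was lower in TAZ-CAMTA1 than in the TAZ4A-labelled libraries (-3.43 ± 0.07, BH-adjusted p = 3.7e-08). In the TAZ4A-labelled libraries the activin A gene and the gene of its inhibitor thus rose together. The gene lies on chromosome 13, 114452290 to 114458951, minus strand (GENCODE vM21, GRCm38). Uniquely mapped reads over its annotated junctions numbered 259, 398 and 433 in control, 3769, 3994 and 3850 in the TAZ4A-labelled libraries and 376, 152 and 271 in TAZ-CAMTA1, so the rise in the TAZ4A-labelled libraries was also seen in spliced reads. Scaled to the junction reads of each library, Fst had 40.4, 40.7 and 44.7 RPM in control and 39.8, 20.5 and 41.2 RPM in TAZ-CAMTA1. Replicates 1 and 3 of TAZ-CAMTA1 thus lay beside control and replicate 2 well below, while in CPM the 3 samples lay close together. Fstl1, a follistatin-like glycoprotein that modulates BMP and TGF-beta signals, fell in the TAZ4A-labelled libraries from 792 ± 16.3 to 474 ± 11.3 CPM (log2 fold change -0.74 ± 0.09, BH-adjusted p = 4.1e-04) and stood at 736 ± 84.3 CPM in TAZ-CAMTA1 (-0.11 ± 0.09, BH-adjusted p = 0.38). It was higher in TAZ-CAMTA1 than in the TAZ4A-labelled libraries (0.63 ± 0.09, BH-adjusted p = 8.6e-04). Fstl3, a further activin-binding family member, was low throughout, at 0.549 ± 0.228, 1.16 ± 0.140 and 0.764 ± 0.0991 CPM. In control only replicate 2 reached the filter level, so Fstl3 was tested only because the construct groups were higher. Its rise in the TAZ4A-labelled libraries (0.68 ± 0.16, BH-adjusted p = 0.014) missed the threshold without control replicate 1 or 3 or TAZ4A replicate 3 (adjusted p 0.051 to 0.059) and with quantile normalization (adjusted p = 0.13). Fstl3 shares 47.3% of its exonic bases with the oppositely oriented Prss57, and whether the authors counted by strand is not given in the sources used here.

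Fst is read as several forms. Exon 4 is joined to exon 5 at either of a pair of acceptor sites 3 bases apart, which adds or drops 3 bases. The 30 exon 4 bases before the junction are in lower case and the 30 bases after it, from exon 5, are in capitals. The sequences are from the GENCODE vM21 transcripts, minus strand.
Fst longer form, intron chr13:114454511-114455120: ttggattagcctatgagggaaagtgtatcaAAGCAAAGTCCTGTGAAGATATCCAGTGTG
Fst-205, intron chr13:114454508-114455120: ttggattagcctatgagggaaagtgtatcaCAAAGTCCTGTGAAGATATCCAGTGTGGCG
The form 3 bases shorter, Fst-205, made up 40.0%, 31.5% and 24.1% of the reads from this donor in control (26 of 65, 35 of 111 and 28 of 116 reads), 25.1%, 25.5% and 23.8% in the TAZ4A-labelled libraries (290 of 1156, 313 of 1229 and 286 of 1203) and 36.3%, 26.4% and 18.8% in TAZ-CAMTA1 (37 of 102, 14 of 53 and 12 of 64). The groups overlapped, so the rise of Fst came with no detectable change of this ratio (exact permutation test, p = 0.3, 0.5 and 0.7 for the 3 comparisons, 0.1 being the smallest that 3 against 3 samples allow). At the last junction, with the donor at 114454279, Fst-202 uses an acceptor 300 bases away from that of the other forms. Its share was 5.88%, 7.45% and 6.08% in control, 7.90%, 8.85% and 8.83% in the TAZ4A-labelled libraries and 5.41%, 6.82% and 4.00% in TAZ-CAMTA1. The TAZ4A-labelled libraries lay above both other groups (means 6.47% ± 0.852, 8.53% ± 0.542 and 5.41% ± 1.41, SD, n = 3; exact permutation p = 0.1 against control and 0.1 between the constructs, the smallest possible). These are 2 of 18 junction pairs with at least 10 reads on the rarer form, found in 10 members, so no p in this family could pass the threshold after adjustment.

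**Figure D3:**
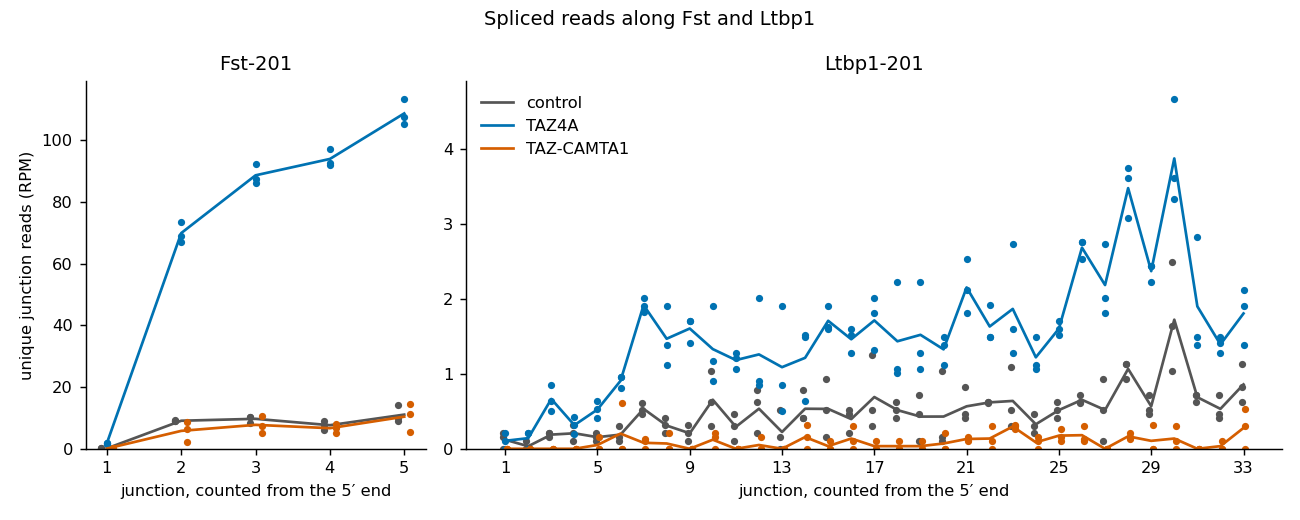
Uniquely mapped spliced reads scaled to the unique junction reads of the library (vertical axis, RPM) at each junction of 1 transcript. Shown are Fst-201, the first-numbered Fst transcript (left), and the long Ltbp1 transcript (right), with junctions counted from the 5′ end (horizontal axis). Points are samples and lines group means, n = 3. The mean of the TAZ4A-labelled libraries runs above that of control along all of Fst. The first Fst junction held few reads, 16 to 19 in each TAZ4A-labelled library against 651 to 693 at the second. Along Ltbp1 it does so from junction 2, on few reads at the first junctions, and TAZ-CAMTA1 runs below control along most of Ltbp1.

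All 5 latency and processing factors differed between the constructs in the fit of the 9 libraries, where 37.9% of all genes tested were called. Ltbp1, which anchors latent TGF-beta in the matrix, had 13.6, 11.4 and 11.3 CPM in control, 37.4, 36.9 and 37.0 CPM in the TAZ4A-labelled libraries and 2.96, 1.68 and 3.44 CPM in TAZ-CAMTA1. None of the groups overlapped. Ltbp1 rose in the TAZ4A-labelled libraries (log2 fold change 1.58 ± 0.20, BH-adjusted p = 5.4e-04), fell in TAZ-CAMTA1 (-2.02 ± 0.20, BH-adjusted p = 1.6e-04) and was lower in TAZ-CAMTA1 than in the TAZ4A-labelled libraries by -3.60 ± 0.20, BH-adjusted p = 4.8e-06. Without TAZ-CAMTA1 replicate 2, the lowest sample, the fall against control was -1.77, BH-adjusted p = 1.3e-10. The gene lies on chromosome 17, 75005568 to 75392512, plus strand, and its long and short forms begin at separate starts. Both promoters are shown because the junction reads bear on which start was used. The lines give the 250 bases before each RefSeq start on GRCm38.p6. Matches to CAGAC, the core letters bound by SMAD proteins, on either strand (GTCTG on the other) are in capitals.
Ltbp1 long form, chr17:75005279-75005528, plus strand: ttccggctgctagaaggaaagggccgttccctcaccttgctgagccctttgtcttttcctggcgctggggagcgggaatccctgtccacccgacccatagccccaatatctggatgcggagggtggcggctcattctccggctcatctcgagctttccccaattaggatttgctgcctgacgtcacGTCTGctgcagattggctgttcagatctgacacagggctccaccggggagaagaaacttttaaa
Ltbp1 short form, chr17:75178531-75178780, plus strand: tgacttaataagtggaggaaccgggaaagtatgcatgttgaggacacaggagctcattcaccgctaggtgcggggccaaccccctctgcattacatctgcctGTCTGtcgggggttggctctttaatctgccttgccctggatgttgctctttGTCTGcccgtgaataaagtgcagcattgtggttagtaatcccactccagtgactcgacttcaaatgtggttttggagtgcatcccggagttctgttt
The first 4 junctions of the long transcript belong to the long form alone. They held 4, 4 and 6 unique reads in control, 13, 7 and 15 in the TAZ4A-labelled libraries and 0 in each TAZ-CAMTA1 sample. The later junctions held 114, 141 and 150 reads in control, 471, 496 and 464 in the TAZ4A-labelled libraries and 35, 8 and 24 in TAZ-CAMTA1. Long-form reads were thus detected in control and in the TAZ4A-labelled libraries. The sums cover unlike numbers of junctions, so they do not give the share of either form. Junction 4, the last long-form one, held 2, 1 and 2 reads in control and 3, 2 and 4 in the TAZ4A-labelled libraries. Junction 5, the first of the later ones, held 1, 1 and 2 and 6, 4 and 5. Which start was used more cannot be told from so few reads. With so few reads in TAZ-CAMTA1 a loss of the long form beyond the loss of the gene was not detectable.

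The related genes did not follow Ltbp1. Ltbp2, a matrix protein of elastic fibres that does not bind latent TGF-beta, had 0.325, 0.120 and 0.439 CPM in control, 1.42, 1.32 and 1.63 CPM in the TAZ4A-labelled libraries and 4.26, 3.79 and 4.58 CPM in TAZ-CAMTA1. All control samples were below the filter level, so Ltbp2 was tested only because the construct groups were higher, and reads at it may include the opposite D030025P21Rik, which covers 9.34% of its exonic bases. With that limit Ltbp2 was higher in the TAZ4A-labelled libraries (log2 fold change 1.32 ± 0.16, BH-adjusted p = 4.1e-04) and in TAZ-CAMTA1 (2.59 ± 0.16, BH-adjusted p = 1.4e-05), and higher in TAZ-CAMTA1 than in the TAZ4A-labelled libraries (1.27 ± 0.16, BH-adjusted p = 4.3e-04). Ltbp4, which presents latent TGF-beta and organises elastic fibres, showed the reverse of Ltbp1, with 8.78, 6.91 and 8.80 CPM in control, 5.05, 5.18 and 5.40 CPM in the TAZ4A-labelled libraries and 13.8, 12.4 and 12.3 CPM in TAZ-CAMTA1. The TAZ4A-labelled libraries were below and the TAZ-CAMTA1 samples above all control samples. Ltbp4 fell in the TAZ4A-labelled libraries (-0.59 ± 0.11, BH-adjusted p = 0.0041), rose in TAZ-CAMTA1 (0.63 ± 0.11, BH-adjusted p = 0.0029), and differed between the constructs by 1.22 ± 0.11, BH-adjusted p = 6.0e-05. Bmp1, an astacin protease that matures procollagens and releases latent complexes despite its name, behaved alike. It had 136, 132 and 131 CPM in control, 90.7, 94.6 and 87.7 CPM in the TAZ4A-labelled libraries and 183, 201 and 178 CPM in TAZ-CAMTA1. Again no groups overlapped, and Bmp1 fell in the TAZ4A-labelled libraries (-0.54 ± 0.07, BH-adjusted p = 7.4e-04) and rose in TAZ-CAMTA1 (0.49 ± 0.07, BH-adjusted p = 0.0013), with a difference of 1.04 ± 0.07, BH-adjusted p = 1.7e-05 between the constructs. Ltbp3, a further latent TGF-beta binding protein, was higher in TAZ-CAMTA1 than in the TAZ4A-labelled libraries (0.39 ± 0.07, BH-adjusted p = 0.0034) but did not pass against control in either (-0.21 and 0.18, adjusted p = 0.071 and 0.09). The Ltbp3 difference between the constructs missed the threshold with TPM (0.28, adjusted p = 0.084).

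Of the type I receptors, Acvrl1, the endothelial receptor also called ALK1, had 70.3, 74.6 and 67.1 CPM in control, 61.4, 59.8 and 55.5 CPM in the TAZ4A-labelled libraries and 110.2, 129 and 106 CPM in TAZ-CAMTA1. It rose in TAZ-CAMTA1 (log2 fold change 0.69 ± 0.09, BH-adjusted p = 7.6e-04), where every sample was above the others, and was higher there than in the TAZ4A-labelled libraries (0.96 ± 0.09, BH-adjusted p = 1.0e-04). The TAZ4A-labelled libraries lay below control without overlap, and that difference did not pass (-0.26 ± 0.09, BH-adjusted p = 0.078) except without TAZ-CAMTA1 replicate 2 (-0.26, BH-adjusted p = 5.4e-04) and in the fits that keep or weight that library out of the spread. Tgfbr1, the TGF-beta type I receptor, had 66.4, 69.3 and 72.9 CPM in control, 86.9, 84.7 and 95.1 CPM in the TAZ4A-labelled libraries and 96.0, 42.4 and 88.3 CPM in TAZ-CAMTA1. Replicate 2 of TAZ-CAMTA1 was far below the other 8 libraries, and no comparison of Tgfbr1 passed with it (adjusted p 0.37 to 0.93). Without it Tgfbr1 was higher than control in both construct groups (log2 fold change 0.35, BH-adjusted p = 4.9e-05 in the TAZ4A-labelled libraries and 0.40, BH-adjusted p = 3.9e-05 in TAZ-CAMTA1). Acvr1, a type I receptor for BMPs and activins, ranged from 32.3 to 47.8 CPM over all libraries and passed in no comparison of the 9 libraries. Without replicate 2 it was higher than control in the TAZ4A-labelled libraries (0.20, BH-adjusted p = 0.0016) and lower in TAZ-CAMTA1 than in those (-0.12, BH-adjusted p = 0.049).

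Among the type II receptors, Tgfbr2, which binds TGF-beta first, had 521, 479 and 526 CPM in control, 362, 364 and 364 CPM in the TAZ4A-labelled libraries and 599.9, 480.2 and 603 CPM in TAZ-CAMTA1. It fell in the TAZ4A-labelled libraries (log2 fold change -0.48 ± 0.10, BH-adjusted p = 0.007) and was higher in TAZ-CAMTA1 than in those libraries (0.62 ± 0.10, BH-adjusted p = 0.0015), while TAZ-CAMTA1 overlapped control (0.13 ± 0.10, BH-adjusted p = 0.32). The fall missed the threshold with TPM (-0.43, adjusted p = 0.095). Without TAZ-CAMTA1 replicate 2 Tgfbr2 was higher than control in TAZ-CAMTA1 (0.24, BH-adjusted p = 3.9e-04). Acvr2a, an activin receptor, had 48.4, 45.7 and 50.2 CPM in control, 34.4, 32.5 and 35.3 CPM in the TAZ4A-labelled libraries and 33.7, 21.7 and 35.4 CPM in TAZ-CAMTA1. Both construct groups lay below all control samples, and Acvr2a fell in TAZ-CAMTA1 (-0.69 ± 0.17, BH-adjusted p = 0.015), a call lost without control replicate 3 (adjusted p = 0.056) and with the 6 compared samples alone (0.057), but did not pass in the TAZ4A-labelled libraries (-0.49 ± 0.17, BH-adjusted p = 0.066), where it passed without TAZ-CAMTA1 replicate 2 (-0.49, BH-adjusted p = 1.1e-06). Acvr2a shares 7.84% of its exonic bases with Orc4 on the opposite strand. Acvr2b, its paralog, stood near 1 CPM in control (0.941 ± 0.0703 CPM) and at 1.44 ± 0.115 CPM in TAZ-CAMTA1. It passed as higher in TAZ-CAMTA1 against control (0.43 ± 0.13, BH-adjusted p = 0.036), a call lost without any 1 of control replicates 1 to 3, TAZ-CAMTA1 replicates 1 or 3 or TAZ4A replicate 3 (adjusted p 0.057 to 0.11) and with quantile normalization, TPM or DESeq2 (adjusted p 0.069 to 0.46), and against the TAZ4A-labelled libraries (0.59 ± 0.13, BH-adjusted p = 0.0082). Bmpr2, the BMP type II receptor, had 100.3, 94.1 and 114 CPM in control, 91.7, 89.5 and 94.9 CPM in the TAZ4A-labelled libraries and 110.1, 51.2 and 110.1 CPM in TAZ-CAMTA1, and its comparisons turned on TAZ-CAMTA1 replicate 2, the lowest of all libraries. No comparison of Bmpr2 passed with that library. Without it Bmpr2 was higher in TAZ-CAMTA1 than in the TAZ4A-labelled libraries (0.26, BH-adjusted p = 0.0029), where all 9 libraries gave -0.11. The co-receptor Tgfbr3, betaglycan, had 28.9, 24.7 and 28.8 CPM in control, 17.8, 18.4 and 19.0 CPM in the TAZ4A-labelled libraries and 38.7, 23.6 and 44.7 CPM in TAZ-CAMTA1, and was higher in TAZ-CAMTA1 than in the TAZ4A-labelled libraries (0.89 ± 0.21, BH-adjusted p = 0.01; 0.76 and adjusted p = 0.061 with TPM). It missed the threshold against control in the fit of the 9 libraries. Without TAZ-CAMTA1 replicate 2 it was lower in the TAZ4A-labelled libraries (-0.56, BH-adjusted p = 4.6e-06) and higher in TAZ-CAMTA1 (0.59, BH-adjusted p = 9.7e-06). Bambi, a pseudoreceptor without a kinase domain, ranged from 17.3 to 32.5 CPM and passed in no comparison of the 9 libraries. Leaving out TAZ-CAMTA1 replicate 2, it was lower than control in the TAZ4A-labelled libraries (-0.30, BH-adjusted p = 8.6e-04) and higher in TAZ-CAMTA1 than in those (0.18, BH-adjusted p = 0.036).

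**Figure D4:**
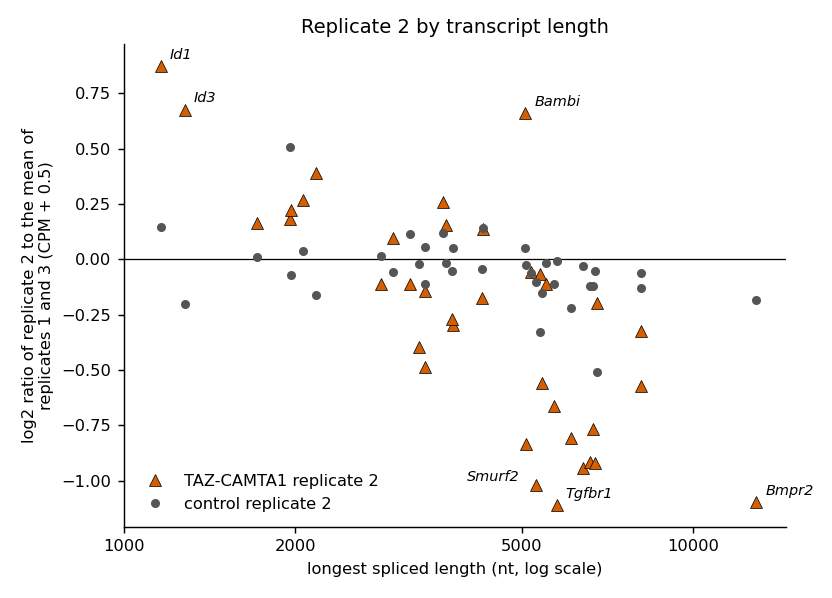
Log2 ratio of replicate 2 to the mean of replicates 1 and 3 (vertical axis, on CPM + 0.5) against the longest spliced length of each tested member (horizontal axis, nt, log scale), for TAZ-CAMTA1 (triangles) and control (circles). Of 18 members of at least 5000 nt, 17 lie below 0 for TAZ-CAMTA1, with Bmpr2 and Tgfbr1 at -1.10 and -1.11, while the short Id1 and Id3 lie at 0.87 and 0.68.

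The deviation of TAZ-CAMTA1 replicate 2 went with transcript length. Across the 37 tested members the log2 ratio of this library to the mean of TAZ-CAMTA1 replicates 1 and 3 had a Pearson correlation of -0.76 with log2 spliced length (Spearman -0.75, across genes, which share the 3 libraries and are not independent replicates). The same measure for control replicate 2 gave -0.41. The median log2 ratio was -0.71 over the 18 members of at least 5000 nt and 0.14 over the 19 shorter ones. In the exon-exon reads the gap was wider for some of these genes. Tgfbr1 had 224, 3 and 136 unique junction reads in TAZ-CAMTA1 replicates 1 to 3 and 113 to 216 in the other groups, and Bmpr2 had 206, 7 and 148 beside 117 to 231. The part of RNA quality or library preparation in these values was not tested.

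Of the receptor SMADs of the BMP branch, Smad1 fell in both construct groups. Smad1 had 517, 493 and 506 CPM in control, 232, 228 and 229 CPM in the TAZ4A-labelled libraries and 375, 321 and 399 CPM in TAZ-CAMTA1. The groups did not overlap, and the TAZ4A-labelled libraries were lowest. Smad1 fell in the TAZ4A-labelled libraries (log2 fold change -1.13 ± 0.09, BH-adjusted p = 2.7e-05) and less in TAZ-CAMTA1 (-0.47 ± 0.09, BH-adjusted p = 0.0039), and was higher in TAZ-CAMTA1 than in the TAZ4A-labelled libraries (0.66 ± 0.09, BH-adjusted p = 5.4e-04). Smad5, its close relative, had 162, 154 and 174 CPM in control, 118, 119 and 125 CPM in the TAZ4A-labelled libraries and 153, 79.6 and 148 CPM in TAZ-CAMTA1, and passed in no comparison of the 9 libraries. Leaving out TAZ-CAMTA1 replicate 2, it was lower than control in the TAZ4A-labelled libraries (-0.43, BH-adjusted p = 1.3e-06) and not called in TAZ-CAMTA1 (-0.11, BH-adjusted p = 0.08). In the TGF-beta branch, Smad2 passed as lower than control in TAZ-CAMTA1 (-0.53 ± 0.15, BH-adjusted p = 0.025), from 90.2 ± 2.76 to 63.3 ± 13.6 CPM. That call did not hold without control replicate 1, 2 or 3 (adjusted p 0.063 to 0.083), with TPM (0.074) or with the 6 compared samples alone (0.082), and did hold without TAZ-CAMTA1 replicate 2 (-0.34, BH-adjusted p = 3.6e-05). Smad3, the partner of Smad2 that binds DNA directly, had 87.2, 84.3 and 84.3 CPM in control, 124, 116 and 117 CPM in the TAZ4A-labelled libraries and 118, 67.6 and 124 CPM in TAZ-CAMTA1, with both construct groups above control apart from TAZ-CAMTA1 replicate 2. It passed in no comparison of the 9 libraries, and without that replicate it was higher in both (0.48, BH-adjusted p = 1.6e-07 and 0.50, BH-adjusted p = 4.3e-07). The common SMAD, Smad4, lay between 64.7 and 94.0 CPM in all libraries and passed nowhere with all of them (log2 fold changes 0.02, -0.01 and -0.03). Without TAZ-CAMTA1 replicate 2 it was slightly higher than control in TAZ-CAMTA1 (0.15, BH-adjusted p = 0.024).

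The inhibitory SMADs lay on opposite sides of control in the TAZ4A-labelled libraries. Smad7, which blocks TGF-beta receptors, had 7.06, 7.77 and 6.92 CPM in control, 9.53, 10.3 and 9.70 CPM in the TAZ4A-labelled libraries and 7.62, 7.56 and 6.02 CPM in TAZ-CAMTA1. It passed as higher in the TAZ4A-labelled libraries than in control (0.42 ± 0.11, BH-adjusted p = 0.021) and as lower in TAZ-CAMTA1 than in the TAZ4A-labelled libraries (-0.46 ± 0.11, BH-adjusted p = 0.01). The first call did not hold without control replicate 1 or 3 or without any 1 TAZ4A library (adjusted p 0.061 to 0.088) nor with quantile normalization (adjusted p = 0.076). Smad6, which blocks BMP receptors, had 7.71, 7.89 and 8.74 CPM in control, 6.84, 6.76 and 6.17 CPM in the TAZ4A-labelled libraries and 6.20, 6.51 and 5.93 CPM in TAZ-CAMTA1, below control in both construct groups without overlap. It fell in TAZ-CAMTA1 (-0.36 ± 0.09, BH-adjusted p = 0.015), a call lost without control replicate 3 (adjusted p = 0.069), and its passing value in the TAZ4A-labelled libraries (-0.28 ± 0.09, BH-adjusted p = 0.049) was lost in every fit that left out 1 library other than TAZ-CAMTA1 replicate 2 (adjusted p 0.059 to 0.18).

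Among the nuclear regulators, Tgif1, a homeodomain corepressor of SMAD2 and SMAD3, had 229, 228 and 225 CPM in control, 146, 147 and 151 CPM in the TAZ4A-labelled libraries and 158, 178 and 161 CPM in TAZ-CAMTA1. Both construct groups were below every control sample, and Tgif1 fell in the TAZ4A-labelled libraries (-0.62 ± 0.07, BH-adjusted p = 2.7e-04) and in TAZ-CAMTA1 (-0.46 ± 0.07, BH-adjusted p = 0.0015). Ski, a proto-oncogene that represses SMAD targets, had 75.1, 77.3 and 81.2 CPM in control, 63.7, 65.3 and 64.0 CPM in the TAZ4A-labelled libraries and 61.3, 57.0 and 62.0 CPM in TAZ-CAMTA1. It fell in TAZ-CAMTA1 (-0.37 ± 0.07, BH-adjusted p = 0.0037). In the TAZ4A-labelled libraries (-0.27 ± 0.07, BH-adjusted p = 0.018) the call did not hold without control replicate 2 or 3 or any 1 TAZ4A library (adjusted p 0.062 to 0.085) nor with TPM (adjusted p = 0.25). Skil, its relative, had 34.2, 33.0 and 34.5 CPM in control, 34.6, 32.4 and 34.7 CPM in the TAZ4A-labelled libraries and 40.7, 21.6 and 41.8 CPM in TAZ-CAMTA1 and passed in no comparison of the 9 libraries. Without TAZ-CAMTA1 replicate 2 it was higher than control in TAZ-CAMTA1 (0.28, BH-adjusted p = 5.4e-04). The ubiquitin ligases Smurf1 and Smurf2, which mark receptors and SMADs for destruction, also passed in no comparison of the 9 libraries. Smurf1 stood at 147 ± 8.91, 195 ± 7.33 and 185 ± 38.5 CPM, and without TAZ-CAMTA1 replicate 2 was higher than control in both construct groups (0.40, BH-adjusted p = 3.3e-06 and 0.49, BH-adjusted p = 1.5e-06), and Smurf2 stood at 201 ± 10.7, 215 ± 8.32 and 163 ± 57.6 CPM and without that replicate was lower in TAZ-CAMTA1 than in the TAZ4A-labelled libraries (-0.13, BH-adjusted p = 0.04).

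The Id genes, which encode dominant-negative helix-loop-helix proteins and are direct targets of BMP SMADs, did not move as a set. Id3 had 2.93, 2.66 and 3.35 CPM in control, 2.14, 2.93 and 1.81 CPM in the TAZ4A-labelled libraries and 9.48, 14.3 and 8.02 CPM in TAZ-CAMTA1. All TAZ-CAMTA1 samples were above the other 6, and replicate 2 was the highest. Id3 rose in TAZ-CAMTA1 against control (log2 fold change 1.64 ± 0.22, BH-adjusted p = 8.1e-04; without that replicate 1.41, BH-adjusted p = 8.6e-07) and was higher than in the TAZ4A-labelled libraries (1.97 ± 0.22, BH-adjusted p = 2.3e-04), which overlapped control (-0.33 ± 0.22, BH-adjusted p = 0.34). Id2 had 21.2, 18.9 and 18.5 CPM in control, 9.32, 10.5 and 9.58 CPM in the TAZ4A-labelled libraries and 10.5, 12.6 and 10.9 CPM in TAZ-CAMTA1, lower in both construct groups than in any control sample. It fell in the TAZ4A-labelled libraries (-0.96 ± 0.10, BH-adjusted p = 1.5e-04) and in TAZ-CAMTA1 (-0.76 ± 0.10, BH-adjusted p = 6.4e-04), and the constructs did not separate (0.20 ± 0.10, BH-adjusted p = 0.14). Id1, the most used readout of BMP signalling in endothelium, had 28.7, 32.6 and 30.3 CPM in control, 26.8, 25.7 and 26.0 CPM in the TAZ4A-labelled libraries and 26.1, 41.7 and 19.0 CPM in TAZ-CAMTA1. Replicates 2 and 3 of TAZ-CAMTA1 were the highest and the lowest of all libraries, and Id1 passed in no comparison of the 9 libraries. Without replicate 2 it was lower than control in the TAZ4A-labelled libraries (-0.22, BH-adjusted p = 0.046) and in TAZ-CAMTA1 (-0.44, BH-adjusted p = 0.0013). Tgfbi, a secreted matrix protein named for its induction by TGF-beta, was below the filter, at 0.325, 0.359 and 0.345 CPM in control, 0.217, 0.263 and 0.246 CPM in the TAZ4A-labelled libraries and 0.833, 0.806 and 0.392 CPM in TAZ-CAMTA1.

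RefSeq promoters were at hand for 30 of the 42 members, in 40 windows, since some genes have several starts. Each window was the 250 bases before the start. The other 12 members, Acvrl1, Bambi, Bmp1, Bmp2, Fst, Id1, Skil, Smad2, Smad4, Smad7, Tgfb3 and Tgfbr3, were not searched. GGAATG, the letters bound by TEAD proteins, was searched on both strands. It was found in 1 of the 40 member windows, that of Id3, and in 12.6% of all 32851 windows. The site lies 203 bases before the Id3 start and is shown within 30 bases, with the match, CATTCC on this strand, in capitals. By the GENCODE vM21 models this window overlaps an annotated exon, and Id3 starts at 136143497 there, upstream of the window.
Id3, chr4:136143607-136143636, plus strand: tcagcgcttcctCATTCCtcgcatccgagg
CAGAC was found in 18 of the 40 member windows (15 members), or 45%, beside 42.2% of all windows. GGCGCC, a GC-rich SMAD motif, was found in 11 of them (10 members), or 27.5%, beside 9.59% of all windows. For Ltbp4 the same site was counted in overlapping windows. The matching windows held 62.4% to 87.6% G or C. GC content was not matched to that of all windows, and its part in this share was not tested. The palindrome GTCTAGAC was in none of the member windows and in 0.167% of all. TATAAA was in 2 of the 40 windows, those of Inhba and Fstl3, beside 12.4% of all. No motif contains another. The matches are a description of these windows and say nothing of binding.

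**Figure D5:**
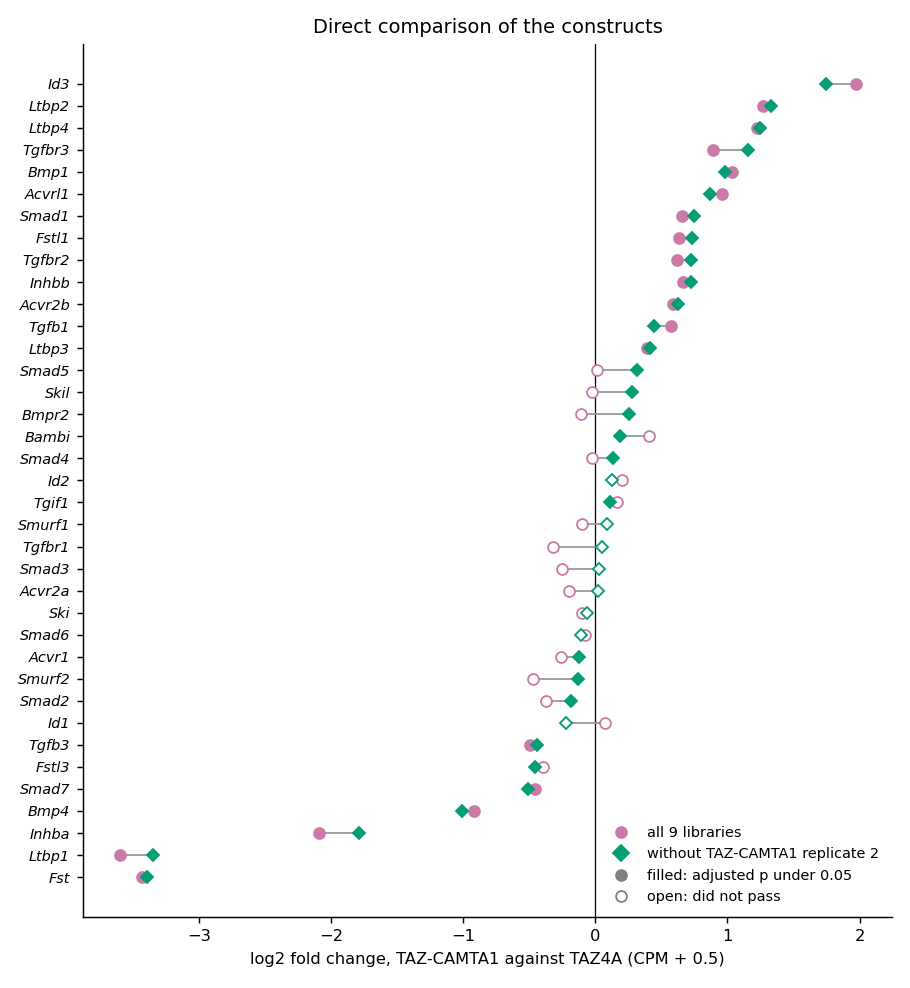
Log2 fold change between TAZ-CAMTA1 and the TAZ4A-labelled libraries (horizontal axis, on CPM + 0.5) of the 37 tested members (rows, ordered by the value without TAZ-CAMTA1 replicate 2), with all 9 libraries (circles) and without that replicate (diamonds); filled symbols have an adjusted p under 0.05. Id3, Ltbp2 and Ltbp4 are highest and Fst, Ltbp1 and Inhba lowest with either set of libraries, while Skil, Smad4 and Bmpr2 change sides and pass without that replicate. Tgfbr1, Acvr2a, Smad3, Smurf1 and Id1 also change sides but pass with neither set.

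The direct comparison of the constructs gathers these differences. Higher in TAZ-CAMTA1 were the ligands Tgfb1 and Inhbb, the receptors Acvrl1, Tgfbr2, Acvr2b and Tgfbr3, the storage and processing factors Ltbp2, Ltbp3, Ltbp4 and Bmp1, and Fstl1, Smad1 and Id3. Lower were the ligands Inhba, Bmp4 and Tgfb3, and Ltbp1, Fst and Smad7. The values ran from -3.60 ± 0.20 for Ltbp1 to 1.97 ± 0.22 for Id3. For Smad1, Tgfbr2 and Fstl1 the TAZ-CAMTA1 level lay between control and the TAZ4A-labelled libraries or overlapped control, whereas for Acvrl1, Ltbp4 and Bmp1 it lay above control. Both construct groups are set against the same control samples, so their values against control are not independent of each other.

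The other genes of the pathway were read from 7 lists (116 genes, 95 in the gene table), again chosen with earlier results of these data known. The shares of all tested genes called, against which their counts are to be read, are 24.9% in the TAZ4A-labelled libraries, 32.1% in TAZ-CAMTA1 and 37.9% in the direct comparison, or 58.3%, 60.9% and 63.0% without TAZ-CAMTA1 replicate 2. Bmp15, Chrdl1, Dcn and Acta2 reached the filter through only 1 group, the one where each is high, and Kcp and Col1a1 only through the construct groups, so the counts of their lists hold differences that the filter favoured. Of 4 tested other ligands, 2 rose and 1 fell in the TAZ4A-labelled libraries (3 and 1 without TAZ-CAMTA1 replicate 2), and 1 rose and 1 fell in TAZ-CAMTA1 (3 and 1). Gdf15, a stress-induced cytokine, rose in the TAZ4A-labelled libraries from 34.0 ± 0.567 to 72.6 ± 5.12 CPM (log2 fold change 1.08 ± 0.22, BH-adjusted p = 0.0067), and Tgfb2 rose there (0.82 ± 0.14, BH-adjusted p = 0.003) and in TAZ-CAMTA1 (0.56 ± 0.14, BH-adjusted p = 0.017). Bmp15, an oocyte ligand, was under 1 CPM in every library. Of 4 tested other receptors, 1 rose and 1 fell in each construct group (2 and 2 in each without that replicate). Rgma, a BMP co-receptor, rose and its relative Rgmb fell in the TAZ4A-labelled libraries (0.43 ± 0.09 and -0.47 ± 0.12) and in TAZ-CAMTA1 (0.71 ± 0.09 and -0.39 ± 0.12).

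Of 10 tested extracellular antagonists, 3 were called higher and 2 lower in the TAZ4A-labelled libraries (5 and 3 without TAZ-CAMTA1 replicate 2), and 2 higher and 4 lower in TAZ-CAMTA1 (2 and 4). In the direct comparison 2 were higher and 5 lower in TAZ-CAMTA1 (2 and 6). Bmper, which binds BMPs outside endothelial cells, had 3.90, 3.05 and 2.76 CPM in control, 13.7, 14.1 and 14.3 CPM in the TAZ4A-labelled libraries and 0.988, 0.907 and 0.785 CPM in TAZ-CAMTA1. No groups overlapped, and Bmper rose in the TAZ4A-labelled libraries (1.97 ± 0.12, BH-adjusted p = 8.7e-06) and fell in TAZ-CAMTA1 (-1.41 ± 0.12, BH-adjusted p = 7.9e-05), the same order of groups as for Ltbp1. Dcn, decorin, a TGF-beta-binding proteoglycan that is also among the fibroblast markers, had 0, 0 and 0 reads in control, 67, 68 and 67 in the TAZ4A-labelled libraries and 0, 1 and 0 in TAZ-CAMTA1. Chrdl1, a chordin-like BMP antagonist, stood at 0.957 ± 0.147 CPM in control and 0.232 ± 0.0761 CPM in the TAZ4A-labelled libraries, and had 0, 1 and 2 reads in TAZ-CAMTA1. Nbl1, a BMP-binding DAN family protein, fell in the TAZ4A-labelled libraries (-0.64 ± 0.10, BH-adjusted p = 0.0015), and the low Kcp and Dand5 were higher than control in TAZ-CAMTA1 (0.74 ± 0.15 and 0.64 ± 0.14).

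Of 11 tested genes of TGF-beta activation and storage, 4 rose and 4 fell in the TAZ4A-labelled libraries (5 and 4 without TAZ-CAMTA1 replicate 2), and 3 rose and 2 fell in TAZ-CAMTA1 (8 and 3). Itgb5, an integrin subunit that helps free TGF-beta, rose from 3.03 ± 0.212 CPM to 9.53 ± 0.802 CPM in the TAZ4A-labelled libraries (1.51 ± 0.11, BH-adjusted p = 1.5e-05) and to 14.5 ± 1.44 CPM in TAZ-CAMTA1 (2.08 ± 0.11, BH-adjusted p = 4.5e-06). Lrrc32, which tethers latent TGF-beta to the cell surface, fell in the TAZ4A-labelled libraries (-1.28 ± 0.10, BH-adjusted p = 4.1e-05) and in TAZ-CAMTA1 (-0.84 ± 0.10, BH-adjusted p = 5.1e-04), and its relative Nrros fell in both as well (-0.87 ± 0.09 and -0.42 ± 0.09). Fbn1, a fibrillin that holds latent complexes, rose in the TAZ4A-labelled libraries (1.62 ± 0.29, BH-adjusted p = 0.004), and the membrane protease Mmp14 rose in TAZ-CAMTA1 (0.73 ± 0.07, BH-adjusted p = 9.7e-05). Between the constructs, Furin, the protease that matures TGF-beta precursors, and the integrin Itgb3 were higher in TAZ-CAMTA1 (1.21 ± 0.09 and 1.14 ± 0.14), and the activator Thbs1 and the integrin Itgb1 lower (-1.43 ± 0.27 and -0.32 ± 0.11).

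Of 18 tested TGF-beta target genes, 8 were called higher and 4 lower in the TAZ4A-labelled libraries (9 and 4 without TAZ-CAMTA1 replicate 2), and 6 higher and 3 lower in TAZ-CAMTA1 (10 and 3). Tgm2, a matrix cross-linking enzyme, rose in TAZ-CAMTA1 (1.81 ± 0.08, BH-adjusted p = 2.6e-06), and Zeb2, a repressor of epithelial genes, rose in the TAZ4A-labelled libraries (1.55 ± 0.27, BH-adjusted p = 0.003). Klf10, an early TGF-beta response factor, fell in the TAZ4A-labelled libraries (-1.37 ± 0.06, BH-adjusted p = 1.6e-06) and in TAZ-CAMTA1 (-0.65 ± 0.06, BH-adjusted p = 1.5e-04), and Pmepa1, a feedback inhibitor of SMAD2 and SMAD3 that is on 2 of the lists, fell in the TAZ4A-labelled libraries (-1.09 ± 0.13, BH-adjusted p = 3.4e-04). Snai2 fell in TAZ-CAMTA1 (-0.78 ± 0.10, BH-adjusted p = 4.8e-04), where Junb and Snai1 were higher than in the TAZ4A-labelled libraries (1.28 ± 0.18 and 1.15 ± 0.17). Thbs1 is also a YAP/TAZ target, so the list is not specific to TGF-beta. Of 6 tested endothelial BMP targets, 2 rose and the other 4 did not pass in the TAZ4A-labelled libraries (2 higher and 2 lower without TAZ-CAMTA1 replicate 2), and 2 rose and 1 fell in TAZ-CAMTA1 (3 and 2). Bmper, given above, is on this list too and accounts for 1 of the rises and for the fall. Msx2, a BMP-induced homeobox gene, rose in both (0.66 ± 0.12 and 0.54 ± 0.12), Msx1 rose in TAZ-CAMTA1 (0.60 ± 0.15), and Lfng was higher in TAZ-CAMTA1 than in the TAZ4A-labelled libraries (0.89 ± 0.15). Of 20 tested intracellular regulators, 3 rose and 3 fell in the TAZ4A-labelled libraries (6 and 5 without TAZ-CAMTA1 replicate 2), and 1 rose and 3 fell in TAZ-CAMTA1 (4 and 7). Cited2, a SMAD coactivator partner, rose in the TAZ4A-labelled libraries from 25.4 ± 0.718 to 90.8 ± 0.663 CPM (1.82 ± 0.13, BH-adjusted p = 2.4e-05), Tgif2, the paralog of Tgif1, rose in both construct groups (0.60 ± 0.09 and 0.93 ± 0.09), and Fkbp1a, which binds type I receptors, fell in the TAZ4A-labelled libraries (-0.79 ± 0.13).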

How the data were processed

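Poly-A RNA of 9 MS1 samples was prepared with a stranded kit and sequenced on an Illumina HiSeq, per the labels. Per the submitters' processing notes the tools were bcl2fastq, FastQC, STAR, featureCounts and edgeR on mm10, and versions and the strand setting of the counting are not given in the sources used here. The deposited gene values, named CPM by the authors, are a signal of reads divided by a scaled library size, since they sum to 976997 to 1028367 a library. All values were whole multiples of 1 read (100%, tolerance 0.01), so whole read counts were recovered from the deposited signal, 21966004 to 34224715 a library. The authors' TPM served for levels between genes and as an alternative. Deposited junction files give counts of spliced reads per intron, 6410070 to 9889541 unique reads a library. The authors' log2 fold changes and FDR p-values are quoted only as theirs, and the likelihood-ratio score of the authors' deposited table was not used.

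The iGenomes table (17565 genes, 12350 tested) was fitted with limma-trend (limma 3.58.1, R 4.3.3, robust) on log2(CPM + 0.5), all 9 libraries, 6 residual degrees of freedom, a filter of 0.5 CPM reached by 3 or more libraries, Benjamini-Hochberg threshold 0.05. The median standard error was 0.14. The pseudocount makes fold changes of low genes too small. The fit was tested on simulated data with changes in the TAZ4A group only and no library that stood apart. A library such as TAZ-CAMTA1 replicate 2 was thus not covered by that test. The design assumed CPM, and the test stayed as planned. edgeR 4.0.16 and DESeq2 1.42.0 were alternatives on recovered reads. Junction shares were compared with exact two-sided permutation tests. Gene models came from GENCODE vM21 (GRCm38, that is mm10) and promoters from RefSeq GRCm38.p6. Named with per-sample values are members called with a log2 fold change of at least 1 and at least 5 CPM, and further members a result turns on; of other lists, up to 2 called genes a direction, except that some list genes are not reported here. The members and lists were chosen with earlier results of these data known. Replicate numbers in the titles name no shared culture or day.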

Additional observations from a re-analysis of the deposited data

How the results depend on the processing

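With pseudocounts of 0.1 and 2, no filter or stricter filters, recomputed TMM, quantile normalization, TPM, the GENCODE table, edgeR and DESeq2, the members called stayed within 14 to 21, 18 to 20 and 18 to 22 for TAZ4A-labelled libraries and for TAZ-CAMTA1, each against control, and for the direct comparison. CPM rescaled to equal sums gave 17, 20 and 19, and moved the split over all genes labelled TAZ4A from 1630 higher and 1447 lower to 1959 and 1108. TPM moved the median of all genes in the direct comparison to -0.13, with 11 members higher and 7 lower, and no test relative to that shift was run. Fits that change the part of TAZ-CAMTA1 replicate 2 in the spread moved the counts. With the compared 6 samples alone, 32 members and 7233 genes were called in the TAZ4A-labelled libraries, where the fit leaves that replicate out. In TAZ-CAMTA1 against control, where the fit keeps it, the counts fell to 15 members and 2445 genes. With library quality weights these were 32 members and 7432 genes, 7255 genes in TAZ-CAMTA1 against control, and 29 members and 8272 genes in the direct comparison. Leaving out 1 library at a time gave 13 to 32, 15 to 29 and 19 to 29 members and 2101 to 7206, 2626 to 7516 and 3236 to 7779 genes, the upper ends being without TAZ-CAMTA1 replicate 2. edgeR without that replicate, chosen after seeing the data, gave 31 members and 7228 genes, 29 and 7417, and 27 and 7772. An estimate that was uncalled in both fits was not counted as reversed when its sign changed.

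Against control, TAZ-CAMTA1 values of Skil and Smad4 changed from -0.03 and -0.01 to 0.28 and 0.15 without TAZ-CAMTA1 replicate 2, and to 0.31 and 0.18 by edgeR without it, Skil being 0.27 with quality weights. In the direct comparison Skil, Smad4 and Bmpr2 changed from -0.03, -0.03 and -0.11 to 0.28, 0.13 and 0.26 without it, 0.30, 0.15 and 0.27 by edgeR, and 0.26, 0.12 and 0.25 with quality weights. Leaving out each library in turn, Skil ran from -0.19 to 0.28 in both comparisons and Bmpr2 from -0.29 to 0.26 in the direct one. The cause was not tested. Of 111 member values, 29 more passed without TAZ-CAMTA1 replicate 2 with their sign kept, and 5 more passed with their sign changed. The other single-library fits lost 2 to 9 calls and gained 0 to 2. Among other scalings and tools, calls were gained for Smurf1 in the TAZ4A-labelled libraries (rescaled CPM, quantile and DESeq2, adjusted p = 0.046, 0.038 and 0.030), Ltbp3 in TAZ-CAMTA1 (the same, 0.046, 0.020 and 0.014), Bmp4 in TAZ-CAMTA1 (TPM, 0.0065), Acvr2b as lower in the TAZ4A-labelled libraries (quantile, 0.028), there by DESeq2 for Acvr2a, Tgfbr3 and Ltbp3 (0.027, 0.037 and 0.020), and directly for Fstl3 (TPM, 0.037), Smad2 (GENCODE, 0.031) and Tgif1 (DESeq2, 0.039). Smad6 in the TAZ4A-labelled libraries was lost with edgeR and DESeq2 (0.060 and 0.052), rescaled CPM (0.11) and TPM (0.16), and kept with quantile normalization (0.021).

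Same-numbered samples did not deviate together throughout (correlations of deviations -0.12 to 0.52, over 0.1 in 6 of 9 pairs). All 3 pairs of number 2 and of number 3 were over 0.1 and those of number 1 were not. Differently numbered pairs ran from -0.53 to 0.56, most of them below 0.1. The numbers were therefore not taken as pairs, which does not show that no day or set was shared. With the replicate number as a block 17, 18 and 19 members and 2890, 3881 and 4619 genes were called. The block ended the calls of Tgfb3 and Smad6 in the TAZ4A-labelled libraries and of Acvr2b in TAZ-CAMTA1 (adjusted p = 0.079, 0.097 and 0.052), and Acvr2a passed in the TAZ4A-labelled libraries (0.042). Junction shares kept their direction with multiply mapped reads, with a minimum of 10 reads and without each library wherever the groups had not overlapped. Members under about 3 reads a library and junction pairs with few reads are limited by depth.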

Other observations

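Spliced reads and gene-level reads of TAZ-CAMTA1 replicate 2 differed in how far they fell below replicates 1 and 3. Of the junction reads of replicate 2, 30.6% were multiply mapped, against 20.8% to 22.2% in the other libraries. Junction RPM counts uniquely mapped reads only, and the part of this in the ratios was not tested. The ratio of replicate 2 to the mean of the others was 0.46 in CPM and 0.018 in junction RPM for Tgfbr1, 0.47 and 0.043 for Bmpr2, and 0.57 and 0.081 for Tgfbr3. For Fst it was 0.92 and 0.50, for Smad1 0.83 and 0.44, and for Fstl1 0.81 and 0.43. For Ltbp4, Bmp1 and Acvrl1 it was near 1 in either measure (0.96 and 0.99, 1.11 and 1.04, and 1.20 and 1.15), although Ltbp4 is 5386 nt long. For Id1 and Id3 it was 1.83 and 2.29, and 1.60 and 1.98. Bambi, at 5074 nt, stood at 1.58 and 1.36 and was the member of at least 5000 nt above the mean of its group.

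Smad2 junction reads that skip an exon used by its main form made up 18.2% ± 7.4 of reads into the shared acceptor in control, 9.8% ± 3.1 in the TAZ4A-labelled libraries and 6.4% ± 6.1 in TAZ-CAMTA1 (SD, n = 3; exact permutation p = 0.2 for either against control), with 14 to 72 reads a library.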
